A study of Danio rerio with 3 samples.

Results

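Zebrafish embryo libraries were examined for the genes that make up the degradative and acidifying machinery of the lysosome. The rule that picks the members uses gene names and no measured value, although it was set with earlier results of these data known. It takes the cathepsins, the subunits and accessory proteins of the vacuolar proton pump (V-ATPase), the LAMP and LAPTM membrane proteins, the Niemann-Pick cholesterol transport genes and the hexosaminidase subunits. The 2 genes named *ctslb*, markers of the hatching gland, were left out of the rule. This gave 59 of the 31950 genes measured, and all 59 gene identifiers matched the reference gene names. Of these members, 50 reached a mean of 10 counts over the libraries and were tested, and 9 did not.

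The study delivered reactive electrophiles to Keap1, the sensor that restrains the antioxidant transcription factor Nrf2, in live embryos. RNA sequencing gave 3 libraries of embryos, 1 per condition. Embryos of all 3 conditions were of the Tg(lyz:TagRFP) line, whose neutrophils are marked in red, and carried injected mRNA for Halo-TEV-Keap1, a fusion of Keap1 to the HaloTag protein. The non-treated library came from such embryos without the procedure. For the HNE Z-REX library, a photocaged precursor of 4-hydroxynonenal (HNE) that binds HaloTag was given at 1 µM for 30 h in the dark and released by light (365 nm, 0.5 mW per cm2, 3 min), with RNA taken 1.5 h later. For the HDE Z-REX library the released compound was 4-hydroxydodecenal (HDE), an alkenal of the same kind with a longer carbon chain. The labels number Keap differently in each library, which was taken as a numbering slip, and they state the precursor dose for HNE only. Because the precursor and the light came with each electrophile, a difference shared by both Z-REX libraries cannot be assigned to the electrophile alone. The libraries held 17996107, 17704406 and 15084289 counts for non-treated, HNE and HDE embryos. The 20 most abundant genes took between 12.5% and 12.9% of each.

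Lysosomes break down proteins, glycans and lipids delivered by endocytosis, phagocytosis and autophagy. Cathepsins are their main proteases and work best in acid, which the V-ATPase provides: its cytosolic V1 sector splits ATP and turns a rotor that drives protons through the membrane-bound V0 sector. The V-ATPase also acidifies endosomes, secretory vesicles and the surface of ionocytes in zebrafish skin, so its transcripts are not particular to lysosomes. Embryos of this age digest yolk in their yolk syncytial layer and clear dying cells with macrophages, and both are rich in lysosomal proteases.

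Expression levels were compared between genes as FPKM, which corrects for transcript length. Cathepsin L, encoded by *ctsla*, was by far the most abundant member, with 949 FPKM in the non-treated, 1260 in the HNE and 932 in the HDE library. It alone made up 31.5%, 36.0% and 33.1% of the FPKM summed over all 59 members. The next were the cholesterol carrier *npc2* (330, 292 and 258 FPKM), the aspartic protease gene *ctsd* (189, 229 and 178 FPKM) and *atp6v0ca*, which encodes the proteolipid of the V0 ring (151, 174 and 163 FPKM). Together with *ctssb.1* (mean 130 FPKM) and the V1 stalk subunit *atp6v1g1* (mean 107 FPKM), 6 members exceeded 100 FPKM on average. At the other end, 10 members stayed below 1 FPKM on average. Among tested members, the cathepsins spanned the widest range of mean level of the 5 role groups, from 1.99 FPKM for *ctssb.2* to 1047 for *ctsla*.

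**Figure D1:**
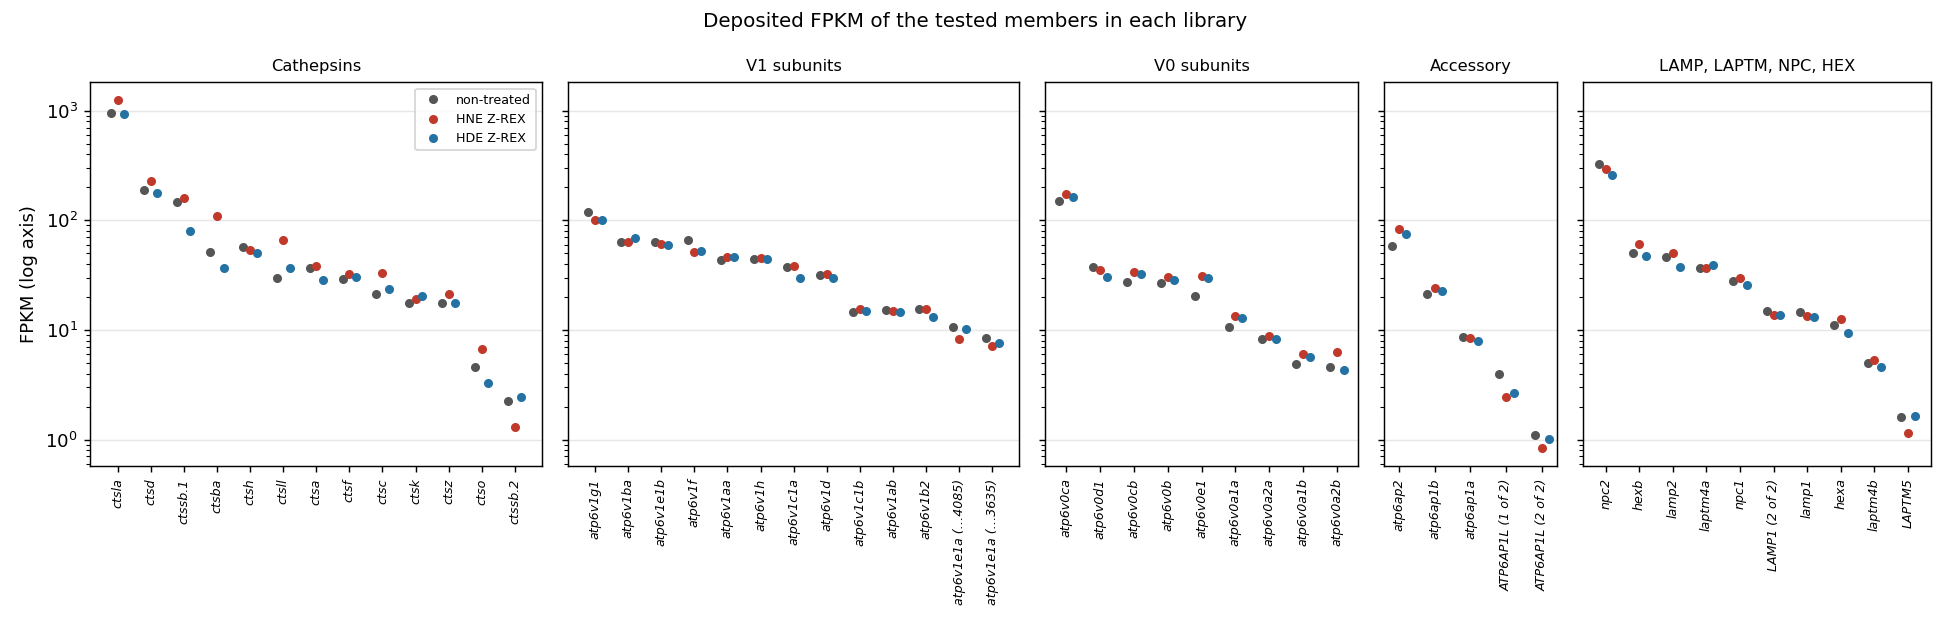
Deposited FPKM (log axis) of the 50 tested members in the non-treated (grey), HNE Z-REX (red) and HDE Z-REX (blue) libraries, ordered by mean level within each role group. Each point is 1 library, so no error bar is drawn. *ctsla* lies above all other members in each library.

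The 9 members below the filter were named with their counts and given no ratio. Among the cathepsins these were *ctsbb* with 0, 1 and 0 counts in the non-treated, HNE and HDE libraries, *ctskl* with 6, 6 and 12, *ctsl.1* with 7, 5 and 9 and *ctssa* with 3, 1 and 1. The V-ATPase genes were *atp6v1c2* with 0, 3 and 3 counts and *ATP6V0A4* with 0, 1 and 0. The remaining 3 were *NPC1L1* with 2, 9 and 1 counts, *NPC2 (2 of 2)* with 0, 0 and 1, and *LAMP5*, the 1 member with 0 counts in every library. A count of 0 does not show that the transcript is absent. The member just inside the filter was *LAPTM5* (21, 15 and 19 counts) and the one just outside was *ctskl*. The second copies of cathepsin B (*ctsbb*) and of NPC2 were thus near 0, so that *ctsba* and *npc2* carried almost all counts of their pairs.

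Each pair of libraries was compared with an exact two-sided binomial test, adjusted by Benjamini-Hochberg over the 18563 genes tested. Ratios, also those written as times, are of TMM-normalized counts, whereas counts given per library are as deposited. Such a test compares those libraries and not the conditions, because there was 1 library per condition. Intervals in brackets are 95% exact intervals of the ratio and cover counting error only. A gene was called when its adjusted p was under 0.05 and its ratio was at least 1.5-fold. The non-treated library is shared by both comparisons with it, so its own deviations enter both.

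Relative to the non-treated library, the HNE library had higher normalized counts of cathepsins and of V0 subunits. Summed V0 counts were also higher in the HDE library, by less, at 1.07 times non-treated against 1.15 times with HNE. The HDE library had lower counts of 2 cathepsins, *ctsba* and *ctssb.1*. With HNE, 4 of the 50 tested members were called higher and 0 lower, against 1.75% of all tested genes called higher and 1.62% lower. With HDE, 0 were called higher and 2 lower, against a background of 2.77% higher and 1.49% lower. By adjusted p alone, without a fold limit, 18 members were higher and 3 lower with HNE, where the background was 7.25% and 7.46%. With HDE, 8 were higher and 6 lower, where it was 9.97% and 11.1%. The same shares are the background for the role groups and gene lists below. Genes with many counts pass the adjusted p at smaller changes, and these shares are not matched for counts. The median log2 ratio over the tested members was 0.09 with HNE and -0.06 with HDE, beside 0.0037 and 0.0072 over all tested genes. The HDE median turned to 0.0091 when libraries were scaled by total counts, so its sign is not settled. In any of the comparisons, 6 members were called. Of the 50, 26 passed the adjusted p alone somewhere and 24 nowhere.

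Among cathepsins, 11 of 13 tested genes had a ratio above 1 with HNE, 9 passed the adjusted p upward and 0 downward, and the median log2 ratio was 0.27. With HDE, 6 lay above 1 and 7 below, with 2 passing the adjusted p in each direction. Their median log2 ratio of -0.02 changed sign under total-count scaling. Summed over all cathepsins, CPM (TMM-normalized counts scaled to library size) were 2154 in the non-treated, 2822 in the HNE and 2042 in the HDE library. The sum was 1.31 times the non-treated value with HNE [1.29 to 1.33] and 0.948 times with HDE [0.934 to 0.962]. *ctsla* alone did not carry this order: without it the sums were 870, 1109 and 776. The lower HDE sum rested on *ctsba*, *ctssb.1* and the scaling: without these genes the sums were 1943, 2538 and 1922 CPM, and with all cathepsins their unscaled share of the library was 0.212% in the non-treated and 0.210% in the HDE library.

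*ctsba* (ENSDARG00000055120), encoding the cysteine protease cathepsin B, had the highest HNE over HDE ratio of any tested member. It had 986 counts in the non-treated, 1988 in the HNE and 542 in the HDE library. The HNE library was thus high and the HDE library low on either side of the non-treated one. The ratio to non-treated was 2.04 with HNE [1.89 to 2.20] (exact test, adjusted p = 2.0e-76) and 0.627 with HDE [0.564 to 0.697] (exact test, adjusted p = 3.7e-17). In FPKM the HDE ratio was 0.720, which does not reach 1.5-fold, while the HNE ratio was 2.13.

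*ctsll* (ENSDARG00000011701), a cathepsin L-like cysteine protease gene, had the highest HNE ratio to the non-treated value of any tested member. Its counts were 663, 1471 and 719 in the non-treated, HNE and HDE libraries, a ratio of 2.24 with HNE [2.04 to 2.46] (exact test, adjusted p = 2.2e-69). With HDE the ratio was 1.24 [1.11 to 1.38] (exact test, adjusted p = 0.00085), under the fold limit. Unlike *ctsba*, it was thus higher in both Z-REX libraries than in the non-treated one.

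*ctsc* (ENSDARG00000101334) encodes dipeptidyl peptidase I, which in mammals activates the serine proteases of immune cell granules. It had 1168 counts in the non-treated, 1805 in the HNE and 1152 in the HDE library. The ratio was 1.56 with HNE [1.45 to 1.68] (exact test, adjusted p = 5.2e-31) and 1.13 with HDE [1.04 to 1.22] (exact test, adjusted p = 0.027). Its HNE value lies just past the fold limit.

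*ctssb.1* (ENSDARG00000074656) belongs to the cathepsin S genes, which in mammals process antigens for presentation. It differed mainly through a low HDE library, with 2760 counts in the non-treated, 2996 in the HNE and 1326 in the HDE library. The ratio was 0.548 with HDE [0.513 to 0.585] (exact test, adjusted p = 4.5e-74) and near 1 with HNE, at a log2 ratio of 0.13 [1.04 to 1.15 as a ratio] (exact test, adjusted p = 0.0060). Its neighbor by name, *ctssb.2*, had only 35, 25 and 36 counts and passed no test. For *ctssb.2* the ratio to non-treated with HNE was 0.721 by counts and 0.575 by FPKM. Whether these genes share reads was not tested, and the tool that counted them is not given in the sources used here.

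*ctso* (ENSDARG00000052855), encoding the cysteine protease cathepsin O, was the least abundant called cathepsin, with 122, 176 and 77 counts in the non-treated, HNE and HDE libraries. Its ratio was 1.46 with HNE [1.15 to 1.85] (exact test, adjusted p = 0.014) and 0.720 with HDE [0.534 to 0.966] (exact test, adjusted p = 0.10). It was called only between the Z-REX libraries, described further on.

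The abundant *ctsla* and *ctsd* moved less. *ctsla* (ENSDARG00000007836) had 22728 counts in the non-treated, 30019 in the HNE and 19638 in the HDE library, with ratios of 1.33 [1.31 to 1.36] and 0.986 [0.967 to 1.00]. *ctsd* (ENSDARG00000057698) had 5415, 6478 and 4514 counts, with ratios of 1.21 [1.16 to 1.25] and 0.951 [0.914 to 0.990]. Both were thus high in the HNE library and close to the non-treated value in the HDE library. The serine carboxypeptidase gene *ctsa* and the carboxypeptidase gene *ctsz* were also higher with HNE, at 1.15 and 1.21 times non-treated. *ctsh*, *ctsf*, *ctsk* and *ctssb.2* passed the adjusted p in no comparison, the lowest HNE ratio being 0.721 for *ctssb.2* and the highest that of *ctsf*, whose interval ran from 1.01 to 1.19.

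**Figure D2:**
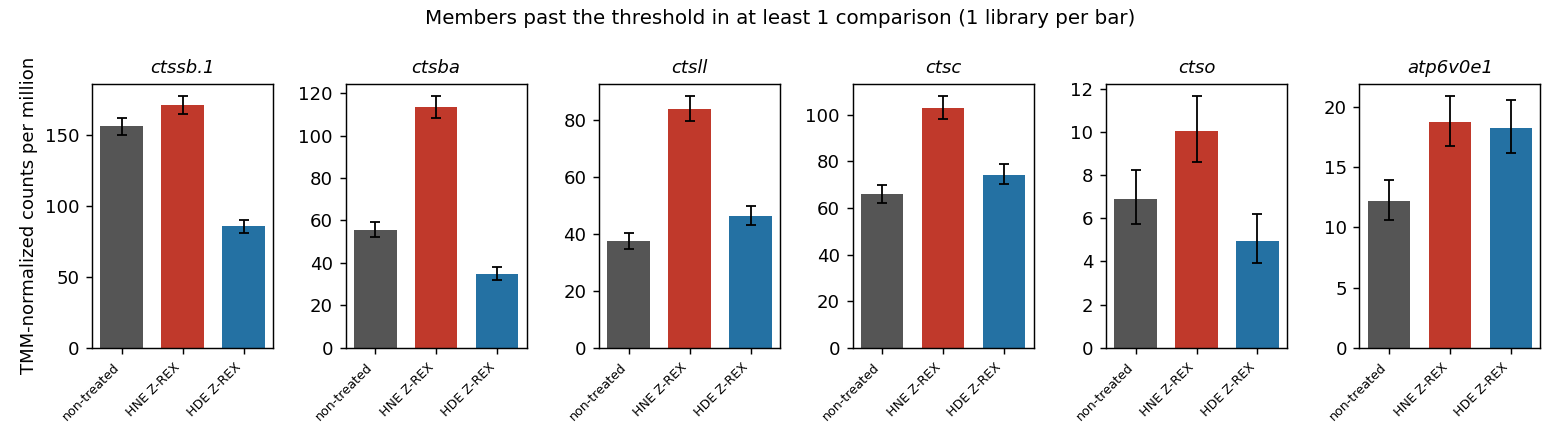
TMM-normalized CPM of the 6 members called in at least 1 comparison, in the non-treated, HNE Z-REX and HDE Z-REX libraries. Bars are single libraries from 0 and error bars are 95% counting intervals. *ctsba*, *ctsll* and *ctsc* stand highest in the HNE library, *ctssb.1* lowest in the HDE library, and *atp6v0e1* is alike in both Z-REX libraries.

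Transcripts of cells rich in cathepsins were set beside these values. Of 11 tested macrophage markers, 4 were called lower with HNE, the perforin-like *mpeg1.1* (91, 21 and 70 counts in non-treated, HNE and HDE), *mfap4* (129, 45 and 91), *spi1b* (68, 31 and 51) and *irf8* (24, 7 and 20). *cd74a* was called higher (1, 22 and 15 counts), but it passed the filter only through its counts in the Z-REX libraries. The marker with the most counts, *slc7a7* (189, 280 and 168), passed the adjusted p upward at 1.50 times non-treated, just under the fold limit, and *csf1rb* had 91, 91 and 74 counts and passed no test. The median log2 ratio of the list was -0.70 with HNE and -0.07 with HDE, and its summed normalized CPM were 39.1, 32.4 and 38.2. Leaving *cd74a* aside, 4 listed markers passed the adjusted p downward with HNE and *slc7a7* passed upward, so they did not all move one way. None of the listed markers was at 0 in all libraries. In pooled embryos, fewer cells of a type and less RNA per cell cannot be told apart. Yolk syncytial layer and liver transcripts were lower in both Z-REX libraries, with 9 of 9 passing the adjusted p downward in each and sums of 15637, 13110 and 11466 CPM. Of all tested genes, 7.46% passed downward with HNE and 11.1% with HDE. Several of these transcripts had very high counts, at which small changes pass, as for *apoa1b* at 0.972 times non-treated with HNE. With the fold limit, 4 of the 9 were called lower in each, against 1.62% of all tested genes with HNE and 1.49% with HDE. The 5 hatching gland genes, *ctslb* included, summed to 2548, 2256 and 2265 CPM. The part of these cell types in the cathepsin values was not tested.

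Cystatins are the proteins that inhibit cysteine cathepsins. Of the listed genes, 4 matched, and none was called. *cst3*, the cystatin C gene, had 2313, 2399 and 1943 counts, and its ratios of 1.05 and 0.958 did not pass the test. *cst14b.1* was lower in both Z-REX libraries, at 0.902 times non-treated with HNE and 0.859 times with HDE. *cst14a.2* was lower as well, at 0.878 and 0.864 times.

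The sectors of the V-ATPase were described separately. Among V0 subunits, 8 of 9 tested had a ratio above 1 with HNE, 6 passed the adjusted p upward and 0 downward, and the median log2 ratio was 0.32. With HDE, 6 lay above 1, 4 passed upward and 0 downward, and the median was 0.09. Among V1 subunits, 4 of 13 lay above 1 and 9 below with HNE, with 0 passing upward, 2 downward and a median of -0.05. With HDE, the V1 counts were 4 above and 9 below, with 1 passing in each direction and a median of -0.07. The signs of these medians were the same under all scalings tried. Summed V0 counts were 1.15 times non-treated with HNE [1.11 to 1.18] and 1.07 times with HDE [1.04 to 1.11]. Summed V1 counts were 0.974 times [0.951 to 0.997] and 0.986 times [0.962 to 1.01]. No test of the difference between the sectors was run.

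In the V0 sector, *atp6v0e1* (ENSDARG00000101794), which encodes the small membrane subunit e, was the only V-ATPase gene called. It had 216 counts in the non-treated, 328 in the HNE and 283 in the HDE library. The ratio was 1.53 with HNE [1.29 to 1.83] (exact test, adjusted p = 2.2e-05) and 1.49 with HDE [1.25 to 1.79] (exact test, adjusted p = 0.00012). The HDE value lay just under the fold limit and passed it when libraries were scaled by total counts, so both Z-REX libraries were high by about the same amount.

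The proton path of V0 runs between a ring of proteolipids and subunit a. The proteolipid gene *atp6v0ca* (ENSDARG00000057853) had 3434, 3830 and 3206 counts and ratios of 1.13 with HNE [1.08 to 1.18] and 1.07 with HDE [1.01 to 1.12]. Its paralog *atp6v0cb* (ENSDARG00000036577) had 773, 957 and 804 counts and ratios of 1.25 [1.14 to 1.38] and 1.19 [1.07 to 1.31]. Both proteolipid genes were thus above the non-treated value in each Z-REX library, by less than the fold limit. Of the subunit a genes, *atp6v0a1a* was at 1.26 and 1.22 times non-treated, and *atp6v0a1b* at 1.26 and 1.17 times. *atp6v0a2b* differed from these, with 320, 415 and 265 counts and ratios of 1.31 with HNE and 0.945 with HDE. *atp6v0d1* (ENSDARG00000069090), which links the V0 ring to the rotor, had 999, 945 and 777 counts and the lowest ratios of the sector, 0.955 and 0.887, neither past the test.

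In the V1 sector, subunits A and B form the ATP-splitting head, D and F the rotor, and C, E, G and H the stalks and their links. The most abundant gene, *atp6v1g1* (ENSDARG00000022315), was lower in both Z-REX libraries, with 1896, 1591 and 1417 counts. Its ratios were 0.847 with HNE [0.792 to 0.906] and 0.853 with HDE [0.795 to 0.914]. *atp6v1ba* (ENSDARG00000013443), a B subunit gene, had 2727, 2676 and 2589 counts and ratios of 0.991 and 1.08, the latter past the adjusted p (exact test, adjusted p = 0.022). *atp6v1e1b* (ENSDARG00000030694), a stalk subunit gene, had 1317, 1255 and 1087 counts and ratios of 0.962 [0.890 to 1.04] and 0.942 [0.868 to 1.02], neither past the test. The other V1 genes kept HNE ratios between 0.779 and 1.07, so changes in this sector were small where they passed the test.

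The name *atp6v1e1a* belongs to 2 identifiers in the tables. One, ENSDARG00000014085, had 324, 250 and 277 counts and was lower with HNE, at 0.779 times non-treated (exact test, adjusted p = 0.025). The other, ENSDARG00000003635, is named *mogat3b* in the reference names, had 191, 160 and 150 counts and passed no test. Its place among the V1 subunits rests on the name in the tables alone.

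The accessory proteins help assemble and sort the pump. *atp6ap2* (ENSDARG00000008735), also known as the prorenin receptor, had 1161, 1317 and 1112 counts. Its count ratios were 1.15 with HNE [1.06 to 1.24] and 1.09 with HDE [1.01 to 1.19], of which the HNE value passed the adjusted p. The FPKM ratios were larger, at 1.42 and 1.28. *atp6ap1b* (ENSDARG00000037153) was at 1.15 times non-treated with HNE (831, 950 and 782 counts), while *atp6ap1a* (ENSDARG00000041417) had 532, 520 and 431 counts and passed no test. The copies named *ATP6AP1L* had at most 101 counts. For *ATP6AP1L (1 of 2)* the count and FPKM ratios disagreed, at 0.940 and 0.614 with HNE, so no direction is given for it.

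Markers of other cells rich in V-ATPase were set beside these values. Of 5 tested ionocyte genes, 0 passed upward and 1 downward with HNE, and summed CPM were 90.7, 94.2 and 98.8 in non-treated, HNE and HDE embryos. The ammonia channel gene *rhcgb*, which marks ionocytes that secrete acid, had 2, 1 and 2 counts. Of 8 genes of pigment cells and pigmented retina, 2 passed upward with HNE, and the sums were 129, 141 and 126 CPM. The share of these cells in the V-ATPase values was not tested.

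**Figure D3:**
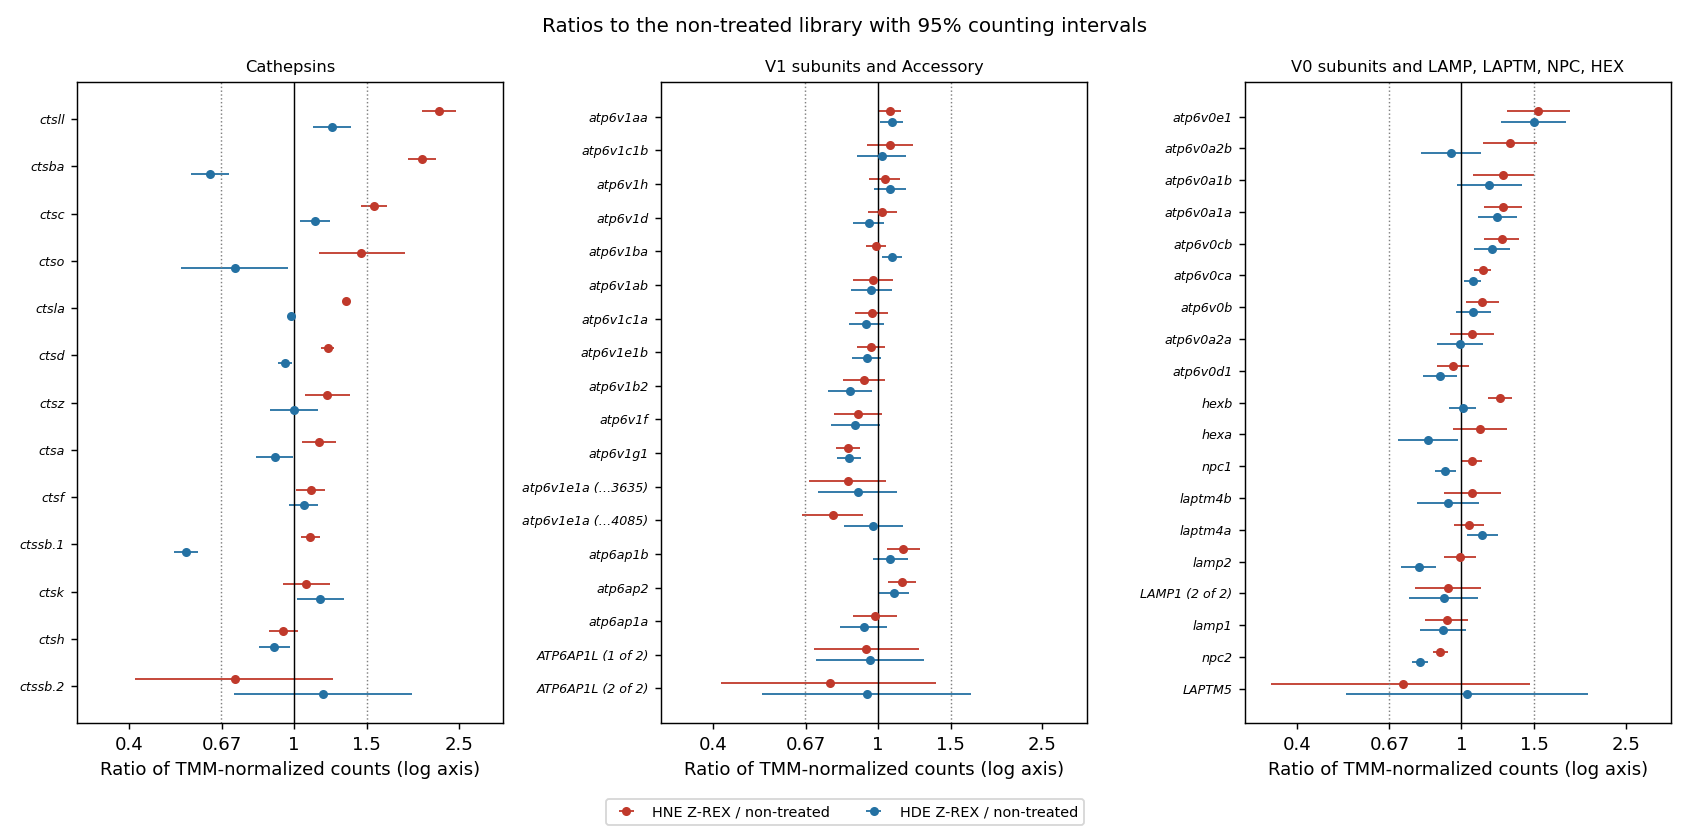
Ratio of TMM-normalized counts to the non-treated library (log axis) for the 50 tested members, with HNE Z-REX in red and HDE Z-REX in blue. Horizontal bars are 95% counting intervals and dotted lines mark 1.5-fold in either direction. Red and blue lie furthest apart for *ctsba*, *ctssb.1*, *ctsll* and *ctso*. Their intervals also separate for *ctsla*, *ctsc*, *ctsd*, *ctsa*, *hexb*, *lamp2*, *npc1*, *npc2* and *atp6v0a2b*. Interval width depends on the counts of a gene, and how often the intervals separate over all tested genes was not computed. Both intervals share the non-treated counts, so their separation or overlap is not a test between the compounds. *hexa*, *ctsz* and *atp6v1ba* overlap here but passed the adjusted p in the direct comparison.

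Of the 10 tested membrane, cholesterol and hexosaminidase genes, 0 were called in any comparison. Between 1.21% and 2.77% of all tested genes were called in a given direction, so 0 of 10 does not set this group apart. *npc2* (ENSDARG00000090912), whose product hands cholesterol to the membrane protein NPC1, had 4888, 4307 and 3401 counts and was lower in both Z-REX libraries. The ratios were 0.890 with HNE [0.854 to 0.927] (exact test, adjusted p = 6.7e-07) and 0.794 with HDE [0.760 to 0.829] (exact test, adjusted p = 2.1e-23). *npc1* itself had 2469, 2600 and 1980 counts, with ratios of 1.06 and 0.915, of which the HDE value passed the adjusted p.

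*hexb* (ENSDARG00000034368), encoding the beta subunit of the enzymes that split gangliosides, had 1502, 1845 and 1325 counts. It was higher with HNE, at 1.24 times non-treated [1.16 to 1.33] (exact test, adjusted p = 2.2e-08), and at 1.01 times with HDE [0.934 to 1.08]. *lamp2* (ENSDARG00000014914), a glycosylated protein that lines the lysosomal membrane, had 1043, 1024 and 721 counts. It passed the test downward with HDE, at 0.789 times non-treated [0.716 to 0.868] (exact test, adjusted p = 1.5e-05) and did not with HNE, at 0.991 times [0.908 to 1.08]. The genes *lamp1* and *LAMP1 (2 of 2)* passed no test. As a group, 1 of 10 passed upward and 1 downward with HNE, and 1 upward and 3 downward with HDE.

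The direct comparison of HNE with HDE does not use the non-treated library. It was the 1 compound pair in the study. The protocol in the labels is the same text for all libraries and describes the HNE precursor, so the times and light given for HDE are carried over from it. Here 4 members were called higher in the HNE library and 0 lower, against 1.21% and 2.30% of all tested genes. All 4 were cathepsins. By adjusted p alone, 15 were higher and 1 lower, against 9.22% and 7.44%. The median log2 ratio was 0.07 over the tested members and -0.00077 over all tested genes.

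*ctsba* was 3.25 times as high in the HNE as in the HDE library [2.95 to 3.58] (exact test, adjusted p = 1.3e-153). *ctso* followed at 2.02 times [1.54 to 2.68] (exact test, adjusted p = 2.3e-06) and *ctssb.1* at 2.00 times [1.87 to 2.13] (exact test, adjusted p = 2.6e-102). The fourth, *ctsll*, was at 1.81 times [1.65 to 1.98] (exact test, adjusted p = 1.4e-38). For *ctsba* and *ctssb.1* the HDE library lay below the non-treated one, whereas for *ctsll* both Z-REX libraries lay above it. *ctsla*, *ctsd* and *ctsc* were also higher with HNE than with HDE, at 1.35, 1.27 and 1.39 times, under the fold limit.

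Over the 50 tested members, 6 had an HNE interval wholly above the non-treated value and an HDE interval wholly below it, namely *ctsba*, *ctso*, *ctsd*, *ctssb.1*, *ctsa* and *npc1*. The reverse pattern was found for 0 members. Only *ctsba* and *ctssb.1* passed the adjusted p both upward with HNE and downward with HDE. For *ctso*, *ctsd*, *ctsa* and *npc1* the HDE upper limits lay near 1, at 0.966, 0.990, 0.997 and 0.971. Scaling by total counts raised the HDE median of all genes by 0.064 on the log2 scale. That shift applies to each gene alike and carries these HDE upper limits past 1. Under total counts *ctso*, *ctsd*, *ctsa* and *npc1* thus lose the pattern. The intervals are not adjusted for the number of genes. How often either pattern occurs over all tested genes was not computed, so these counts have no background beside them. Among the 13 cathepsins, 9 passed the adjusted p upward in the HNE over HDE comparison and 0 downward, with a median log2 ratio of 0.35.

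Between the compounds, 9.22% of all tested genes passed the adjusted p upward in HNE over HDE embryos and 7.44% downward. Of 22 tested V1 and V0 subunits, 1 passed the adjusted p upward, *atp6v0a2b* at 1.39 times [1.19 to 1.62], and 1 downward, *atp6v1ba* at 0.915 times [0.866 to 0.966]. For *atp6v0e1* the ratio was 1.03 [0.872 to 1.21], for *atp6v0ca* 1.06 [1.01 to 1.11] and for *atp6v1g1* 0.994 [0.924 to 1.07]. Differences within these intervals remain possible, and a p that misses the threshold does not show that the compounds act alike. In the remaining group, 5 of 10 passed upward, *hexa* at 1.33, *lamp2* at 1.26, *hexb* at 1.23, *npc1* at 1.16 and *npc2* at 1.12 times.

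**Figure D4:**
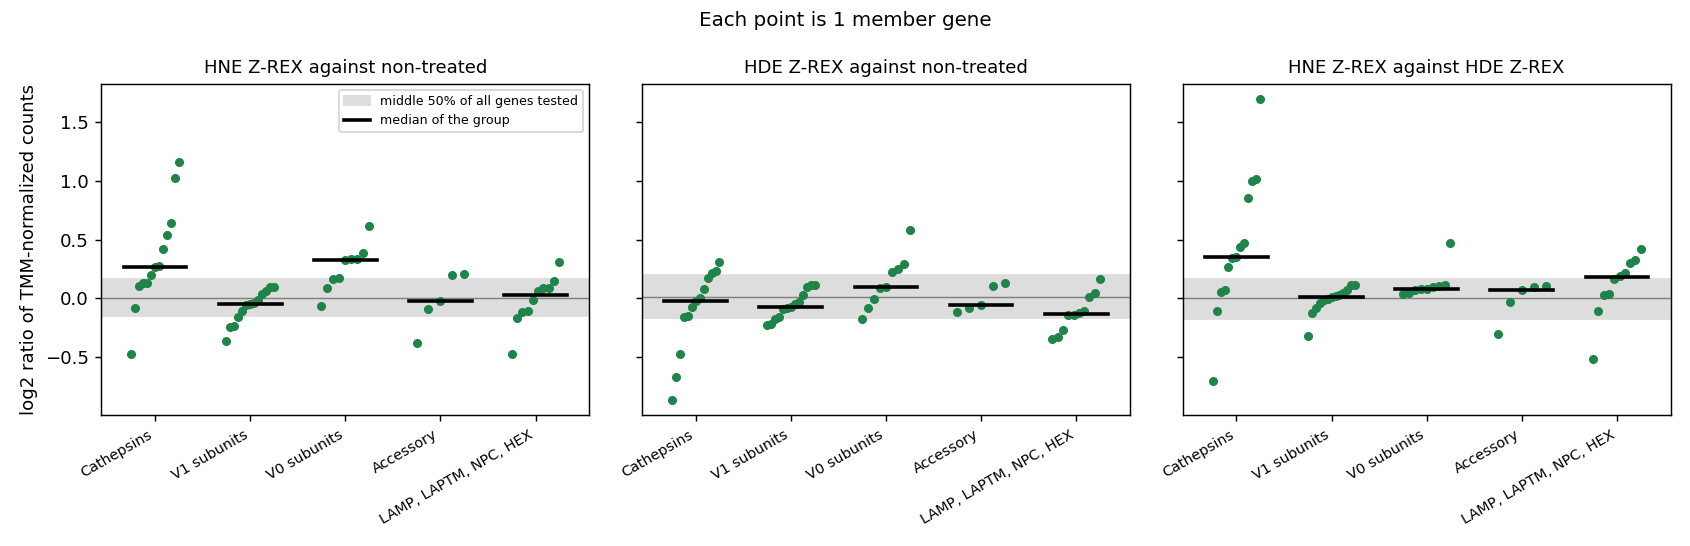
Log2 ratio of TMM-normalized counts for each tested member (1 green point per gene) by role group, in the 3 comparisons. Black bars are group medians and the grey band holds the middle 50% of all 18563 genes tested. The cathepsin medians are 0.27, -0.02 and 0.35, and the V0 medians are 0.32, 0.09 and 0.08.

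*ctsa* encodes the protective protein that holds neuraminidase 1 and beta-galactosidase in a complex. *ctsa* was at 1.28 times in HNE over HDE embryos [1.16 to 1.41]. Its partner *neu1* had 434, 577 and 329 counts in the non-treated, HNE and HDE libraries and was called higher in HNE over HDE embryos, at 1.55 times [1.35 to 1.78] (exact test, adjusted p = 3.9e-09). The beta-galactosidase gene *glb1* had 335, 387 and 281 counts and passed no test, at 1.22 times in HNE over HDE embryos [1.04 to 1.43] (exact test, adjusted p = 0.065). *neu1* was the only gene called in this comparison among 34 listed acid hydrolases and cofactors. Of that list, 5 passed the adjusted p upward and 0 downward, with a median log2 ratio of 0.03. Of all tested genes, 1.21% were called higher and 9.22% passed upward.

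Other acid hydrolases gave a background for the members. Of 34 matched genes, 0 were called with HNE, 8 passed the adjusted p upward and 1 downward, and the median log2 ratio was 0.15. Of all tested genes, 7.25% passed upward and 7.46% downward with HNE. With HDE, 1 was called, the arylsulfatase A gene *arsa* at 1.67 times (91, 124 and 133 counts), while 5 passed upward and 2 downward. The shares of all tested genes with HDE were 9.97% upward and 11.1% downward. The lysosomal phospholipase gene *pla2g15* was higher in both Z-REX libraries, at 1.28 and 1.25 times. The acid phosphatase gene *acp5a* was lower in both, at 0.791 and 0.735 times (4555, 3570 and 2933 counts). The alpha-mannosidase gene *man2b1* was higher with HNE, at 1.25 times non-treated, while its HDE ratio of 0.982 did not pass the test. *man2b1* was also higher in HNE than in HDE embryos, at 1.27 times [1.16 to 1.40].

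Among 17 tested lysosomal membrane proteins outside the rule, 3 passed upward with HNE, the chloride transporter gene *clcn7* at 1.28, its partner *ostm1* at 1.28 and *mfsd12a* at 1.48 times. The sialic acid exporter gene *slc17a5* was lower, at 0.697 times. Of all tested genes, 7.25% passed upward and 7.46% downward with HNE. With HDE, the proton channel gene *tmem175* was called higher, at 2.18 times (23, 31 and 44 counts). *clcn7* passed upward with HDE as well, at 1.21 times. Of 7 sorting genes, which send enzymes to lysosomes, 0 passed the adjusted p in either comparison with the non-treated library. Of 11 tested regulators of lysosomal genes and nutrient signaling, 1 passed upward with HNE, *lamtor1* at 1.38 times, and 0 downward. With HDE, 2 regulators passed upward, *mtor* at 1.14 and *flcn* at 1.32 times, and 0 downward. Transcripts of *tfeb*, the transcription factor that drives lysosomal genes in mammals, had 108, 78 and 81 counts and passed no test.

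Counting error was the only error these libraries allow to be measured. If a biological coefficient of variation of 0.1 between replicates is assumed, 6 of the 10 calls over the 3 comparisons hold, and *ctsc* and *atp6v0e1* with HNE, *ctsba* with HDE and *ctso* between the compounds lose theirs. At 0.2, none of the 10 holds, the nearest being *ctsba* in HNE over HDE embryos (edgeR exact test, adjusted p = 0.062).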

How the data were processed

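Poly(A) RNA from zebrafish embryos was sequenced in 3 libraries. The authors trimmed reads with cutadapt 1.8 and mapped them to GRCz10 with TopHat 2.1. The deposited estimated counts per gene are unscaled, and the counting tool is not given in the sources used here. Counts were whole for all 59 members and fractional for 939 genes of the series, which were rounded. The FPKM values were made by the authors with Cufflinks 2.2 (Cuffnorm). Totals were 15084289 to 17996107 counts.

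Libraries were scaled with TMM factors (edgeR 4.0.16, R 4.3.3) from the 18563 genes that averaged 10 counts or more. Each pair was compared with an exact conditional binomial test (scipy 1.17.1), adjusted by Benjamini-Hochberg, and called at an adjusted p under 0.05 and 1.5-fold. Clopper-Pearson intervals (95%) cover counting error only. The test was checked on simulated data that held counting error only, so the check does not cover variation between embryos. All members are accounted for; those called and the 3 with the highest mean FPKM in each of 5 role groups are given in full, and the rest by counts, ranges and examples chosen after their values were seen. Members and gene lists were chosen with earlier results of these data known. Alternatives were other scalings (DESeq2 1.42.0 size factors, total counts), filters, fold limits, assumed coefficients of variation (edgeR exact test) and FPKM. TMM factors from all genes were added after seeing the data. Genome positions and sequences are not given, since no reference of the authors' build was used here.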

Additional observations from a re-analysis of the deposited data

Results flagged for a closer look

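The HNE and HDE libraries differed from each other in 4 members by at least 1.5-fold and an adjusted p under 0.05 in the test of the difference itself, the exact binomial test between both Z-REX libraries. By the adjusted p alone, 15 members were higher in the HNE library and 1 lower. On the log2 scale, HNE over HDE was 1.70 for *ctsba*, 1.02 for *ctso*, 1.00 for *ctssb.1* and 0.86 for *ctsll*. With 1 library per compound, the test compares libraries, and a difference between the compounds cannot be told apart from one between these groups of embryos.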

How the results depend on the processing

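No paired analysis was possible because each condition has 1 library, and no library could be left out. With HNE, the median log2 ratio of the members was 0.088, and 0.078 to 0.099 under the alternatives that give a median. With HDE it was -0.055, and -0.077 to 0.0091 under these alternatives, its sign turning under total-count scaling. In HNE over HDE embryos it was 0.075, and 0.020 to 0.099 under these alternatives. Called members numbered 4 (HNE), 2 (HDE) and 4 (HNE over HDE). With an assumed coefficient of variation of 0.1 they numbered 2, 1 and 3, and with 0.2 or 0.4 they were 0, 0 and 0. A 2-fold limit gave 2, 0 and 2. Without a fold limit they numbered 21 (18 higher, 3 lower), 14 (8 higher, 6 lower) and 16 (15 higher, 1 lower). Of the 10 calls, 9 kept a 1.5-fold difference on FPKM, where no test was run. The exception was *ctsba* with HDE (log2 -0.47 with a pseudocount of 0.1). All 10 calls held under each other scaling. Under total counts *atp6v0e1* with HDE was called as well (log2 0.64). None of the 10 calls changed direction under any alternative. The ratio of *atp6v0e1* in HNE over HDE embryos, which passed no test, went from a log2 of 0.04 to -0.02 under total counts. Other scalings moved the median of all genes by at most 0.064 on the log2 scale. Depth limits the low members: *ctso* rests on 77 to 176 counts per library, and 9 members had too few counts for a ratio.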

Other observations

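Autophagy delivers cytoplasm to lysosomes, and its genes were read as a separate list. Of 11 tested autophagy genes, 10 had a TMM-normalized HNE over HDE ratio below 1 and 1 above. Of these genes, 5 passed the adjusted p downward and 0 upward, and the median log2 ratio was -0.29. Over all tested genes, 7.44% passed downward and 9.22% upward, with a median of -0.00077. Against the non-treated library, 1 listed gene passed upward with HNE and 0 downward, with a median of -0.06. With HDE, 9 lay above 1 and 2 below, 4 passed upward and 0 downward, and the median was 0.15. The list was thus nearer the non-treated value with HNE and higher with HDE. The cargo receptor gene *sqstm1*, a known Nrf2 target in mammals, had 463 counts in the non-treated, 603 in the HNE and 679 in the HDE library. It was called higher with HDE, at 1.67 times non-treated [1.48 to 1.89] (exact test, adjusted p = 3.6e-16), and was at 1.31 times with HNE [1.16 to 1.49]. The only listed gene called between the compounds was *atg9a*, a membrane protein of early autophagosomes, with 113, 94 and 139 counts and a TMM-normalized HNE over HDE ratio of 0.598 [0.456 to 0.783] (exact test, adjusted p = 0.0016). *gabarapa* and *map1lc3a*, whose products coat autophagosome membranes, were also lower in HNE than in HDE embryos, at ratios of 0.803 and 0.770.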
